A study of Mus musculus with 6 samples.

Results

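The arms described here are the mature microRNAs named miR-17, miR-18a, miR-18b, miR-92a and miR-92b in the authors' sheet of 2380 small RNAs. There are 8 of them: miR-17-5p, miR-17-3p, miR-18a-5p, miR-18b-5p, miR-92a-1-5p, miR-92a-2-5p, miR-92b-5p and miR-92b-3p. The sheet gives names with fold changes and no probe. Each name was therefore tied to the probe, or to the mean of neighbouring probes, whose recomputed fold change and p-value of the pull-down signal matched the sheet. The probes of the arms were thus chosen by the difference between genotypes in the pull-down, which is described below without a test. miR-92a-3p, miR-18a-3p and miR-18b-3p were not analysed here.

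All samples were frozen mouse hippocampus. Of the 6, 3 came from PS19 mice, which carry a transgene for human tau with the P301S mutation, and 3 from wild-type (WT) mice without it. In the PS19 line the transgene is driven by the mouse prion promoter. Homogenised tissue was crosslinked with ultraviolet light, and complexes of RNA and protein were pulled down with magnetic beads carrying an antibody to tau phosphorylated at serine 396 (pS396), a procedure called CLIP. On each array the CLIP RNA was labelled with Cy5 and the unbound RNA left in the supernatant with Cy3. The labels give no age, sex or number of animals, and the p-values below measure only the spread between these samples. No pull-down with a control antibody was part of the arrays analysed here, and the dyes were never swapped, so binding and dye cannot be told apart in a ratio of the channels. In bulk tissue, fewer cells of a type and less RNA per cell cannot be told apart either.

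MicroRNAs are short RNAs that guide Argonaute proteins to messenger RNAs by pairing through the seed, bases 2 to 8. miR-17, miR-18a and miR-92a-1 are cut from one primary transcript, the miR-17 to miR-92a-1 cluster, and miR-18b and miR-92a-2 from its paralogue on the X chromosome. The cluster is known for driving proliferation and for restraining the death factor Bim, and in the brain for supporting neural progenitors, those of the adult hippocampus included. miR-92b-3p represses Eomes, a factor of intermediate progenitors in the embryonic cortex. In most tissues the -5p arm is the guide of miR-17 and miR-18 and the -3p arm the guide of miR-92a and miR-92b. The other arm is largely degraded.

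The mature sequences below show which arms share a seed, printed in capitals, since arms with one seed recognise the same core site. They are from RefSeq (assembly GRCm38.p6), where all 8 names were found, and are written 5′ to 3′.
miR-17-5p: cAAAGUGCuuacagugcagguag
miR-17-3p: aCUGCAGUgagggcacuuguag
miR-18a-5p: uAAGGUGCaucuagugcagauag
miR-18b-5p: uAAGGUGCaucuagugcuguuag
miR-92a-1-5p: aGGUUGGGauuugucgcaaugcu
miR-92a-2-5p: aGGUGGGGauugguggcauuac
miR-92b-5p: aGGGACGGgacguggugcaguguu
miR-92b-3p: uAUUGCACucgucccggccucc

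The 2 miR-18 arms were the only pair among the 8 with one seed. Over 23 bases they differed at 2, A18U and A20U, where miR-18a-5p is given first and positions count from its 5′ end. miR-17-5p and miR-18a-5p differed at 6 bases, 1 of them inside the seed (A4G). The seed of miR-17-5p is held by 7 mature mouse microRNAs in the reference, 6 of them in the sheet. That of miR-92b-3p is held by 6, of which 3 are in the sheet. The -5p arms of miR-92a-1, miR-92a-2 and miR-92b each had a seed found in no other mature mouse microRNA of the reference. In GRCm38.p6 miR-17-5p lies at chr14:115043684-115043706, miR-17-3p at chr14:115043721-115043742, miR-18a-5p at chr14:115043867-115043889 and miR-92a-1-5p at chr14:115044437-115044459, all on the plus strand in a cluster of 6 hairpins that spans 836 bases. On the minus strand, miR-18b-5p lies at chrX:52742381-52742403 and miR-92a-2-5p at chrX:52741892-52741913, in a cluster of 6 hairpins over 875 bases. miR-92b-5p (chr3:89227165-89227188) and miR-92b-3p (chr3:89227126-89227147) are the 2 arms of a hairpin of its own, also on the minus strand.

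The arrays differed in how much of the pull-down could be read. Between 10.6% and 44.2% of probes were well above background in the CLIP channel of the WT arrays, and 37.6% to 49.4% in PS19. In the supernatant the ranges were 40.2% to 55.1% and 35.5% to 63.2%, and no probe was saturated. One scan held both genotypes, with WT 2 beside PS19 1. PS19 2 was scanned together with PS19 3, while WT 1 and WT 3 each had a scan of their own. Of the neuronal microRNAs checked, miR-124-3p and miR-129-5p were well above background in the supernatant of 6 of 6 arrays, miR-9-5p on 2, and the other 2 listed were not in the sheet. None of the listed markers of red blood cells, endothelium, microglia, oligodendrocytes, choroid plexus or smooth muscle was in the sheet, so those cells' part in any result was not tested.

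The supernatant level, the unbound RNA, was not used to find the arms and could be tested. It is the log2 signal minus the array's 75th percentile, so 0 stands for a bright RNA, and probes bind differently, so arms cannot be ranked by level. All 8 arms had a higher mean in PS19 than in WT, by 0.06 to 1.89 log2 units, and none passed the test. With the percentile taken over all RNAs 5 of the 8 were higher, with spike-in probes as the scale 6 and with quantile normalization 7. The median difference was 0.35 for the arms and 0.10 over all 3727 RNAs tested, of which 57.4% lay above 0. Above that median stood 7 of the 8, as with quantile normalization. The percentile over all RNAs and the spike-in scale shift RNAs with complete values alike, so they could hardly change that count. With 1 array left out it was 6 (without WT 1, PS19 2 or PS19 3) to 8 (without WT 2). At an adjusted p under 0.05 limma called 0 of the 8 arms and 0% of all RNAs. At an unadjusted p under 0.05, 1 arm (miR-92b-3p) and 1.74% of all RNAs were higher in PS19.

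miR-17-5p, the guide arm whose seed defines the family, had supernatant levels of -2.79, -2.81 and -3.43 on WT 1, WT 2 and WT 3, and of -2.68, -2.75 and -2.57 on PS19 1, PS19 2 and PS19 3. The 3 PS19 arrays lay above the 3 WT arrays, by a narrow margin except for WT 3. The means were -3.01 ± 0.37 in WT and -2.67 ± 0.09 in PS19 (SD, n = 3 each), a difference of 0.34 (SE 0.31, 95% interval -0.40 to 1.09, limma adjusted p = 0.928). It was the only one of the 8 arms whose groups did not overlap, where 7.42% of all RNAs with complete values lay without overlap and higher in PS19. Between the arrays of the shared scan, PS19 1 was 0.13 above WT 2, and without WT 3 the difference was also 0.13. These levels are means of 5 probes, whose single differences ran from -0.20 to 1.05 and so did not share a direction. The largest belonged to the fourth probe, which read -0.79 on PS19 3.

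Its opposite arm, miR-17-3p, read 0.79, 1.14 and -1.41 on the WT arrays and 1.34, 1.43 and 0.83 on the PS19 arrays. WT 3 stood apart and the other 5 arrays overlapped. The difference of 1.03 (SE 0.70, 95% interval -0.65 to 2.70, limma adjusted p = 0.928) was 0.24 without WT 3 and 0.20 within the shared scan. Of its 5 probes, the second and the fourth had the largest differences, 1.39 and 1.61 beside 0.43 to 1.03 for the others. The second read 4.23 and 3.68 on WT 1 and WT 2, -0.79 on WT 3, and 3.22 to 4.14 on the PS19 arrays. The fourth read 3.09 and 3.31, then -1.01 on WT 3, and 3.13 to 3.75 in PS19. The same 2 probes were low on WT 3 in the CLIP channel, at -3.59 and -3.86, against 0.86 to 2.05 on the other 5 arrays.

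**Figure D1:**
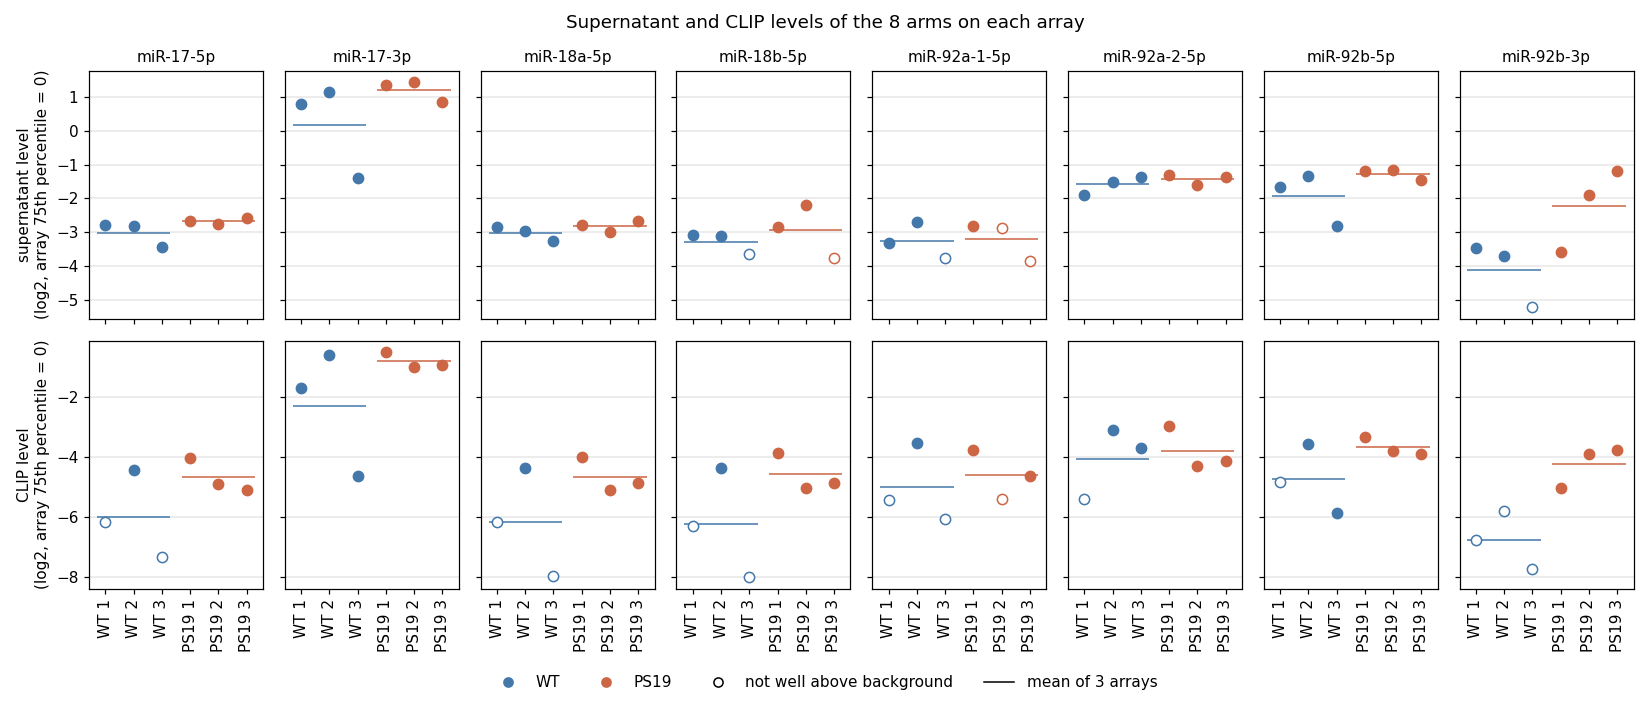
Log2 supernatant level (upper row) and CLIP level (lower row) of the 8 arms on each array, with each array's 75th percentile set to 0; points are arrays, lines are means of 3 arrays and open points were not well above background. The supernatant levels of miR-17-5p do not overlap between genotypes, miR-17-3p is low on WT 3 alone, and miR-92b-3p is highest on PS19 2 and PS19 3 in both rows.

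miR-18a-5p, which is known to lower the glucocorticoid receptor in rat neuronal cells, gave -2.84, -2.95 and -3.25 in WT and -2.79, -3.001 and -2.66 in PS19. The groups overlapped, and the difference was 0.20 (SE 0.29, 95% interval -0.49 to 0.88, limma adjusted p = 0.928). Its 4 probes gave differences from -0.67 to 0.62, so the probes did not share a direction. For miR-18b-5p, the copy from the X chromosome, the levels were -3.07, -3.11 and -3.64 in WT and -2.84, -2.18 and -3.75 in PS19. WT 3 and PS19 3 were not well above background, and the difference of 0.35 (SE 0.46, 95% interval -0.77 to 1.47, limma adjusted p = 0.928) lay within that scatter.

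miR-92b-3p, the guide arm of its hairpin, showed the largest difference of the 8. Its supernatant level was -3.45, -3.69 and -5.21 in WT, where WT 3 was not well above background, and -3.58, -1.90 and -1.19 in PS19. PS19 2 and PS19 3, which shared a scan, were higher than all WT arrays, while PS19 1 lay between WT 1 and WT 2. The means were -4.12 ± 0.96 in WT and -2.23 ± 1.23 in PS19 (SD, n = 3 each), a difference of 1.89 (SE 0.76, 95% interval 0.07 to 3.71). By limma the unadjusted p was 0.0437 and the adjusted p 0.928. Between PS19 1 and WT 2 the difference was 0.10, and it was 1.34 without WT 3 and 1.38 without PS19 3. All 3 of its probes were higher in PS19, by 1.47 to 2.35. The summed supernatant level of the 3 neuronal microRNAs found was -1.57 to -1.35 on WT 1 and WT 2 and -1.22 to -0.23 in PS19, with no sum for WT 3, where miR-9-5p has no value. miR-124-3p read -2.70, -3.20 and -0.9992 in WT and -3.37, -1.33 and -0.78 in PS19, so that its groups overlapped. On WT 3 miR-124-3p alone was brighter than the sum of -1.22 on PS19 1. A sum that included WT 3 would therefore overlap between the genotypes. The part of these markers in the result was not tested. miR-363-3p and miR-367-3p, the other arms of the sheet with its seed, differed by 0.49 and 0.09, and limma's adjusted p was 0.928 and 0.955.

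The -5p arms of miR-92a and miR-92b, usually the degraded strand, did not pass the test either. For miR-92b-5p the levels were -1.67, -1.34 and -2.81 in WT and -1.19, -1.17 and -1.47 in PS19, a difference of 0.66 (SE 0.44, 95% interval -0.40 to 1.72, limma adjusted p = 0.928). WT 3 was again the lowest array, and without it the difference was 0.23. miR-92a-2-5p gave -1.89, -1.50 and -1.36 in WT and -1.29, -1.61 and -1.38 in PS19, which differed by 0.16 (SE 0.29, 95% interval -0.55 to 0.87, limma adjusted p = 0.928). For miR-92a-1-5p the levels were -3.32, -2.68 and -3.74 in WT and -2.82, -2.87 and -3.86 in PS19, and the difference was 0.06 (SE 0.44, 95% interval -1.004 to 1.13, limma adjusted p = 0.983). That arm was well above background on 3 of 6 arrays. The signs of miR-92a-1-5p, miR-92a-2-5p and miR-18a-5p turned below 0 when the 75th percentile was taken over all RNAs.

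**Figure D2:**
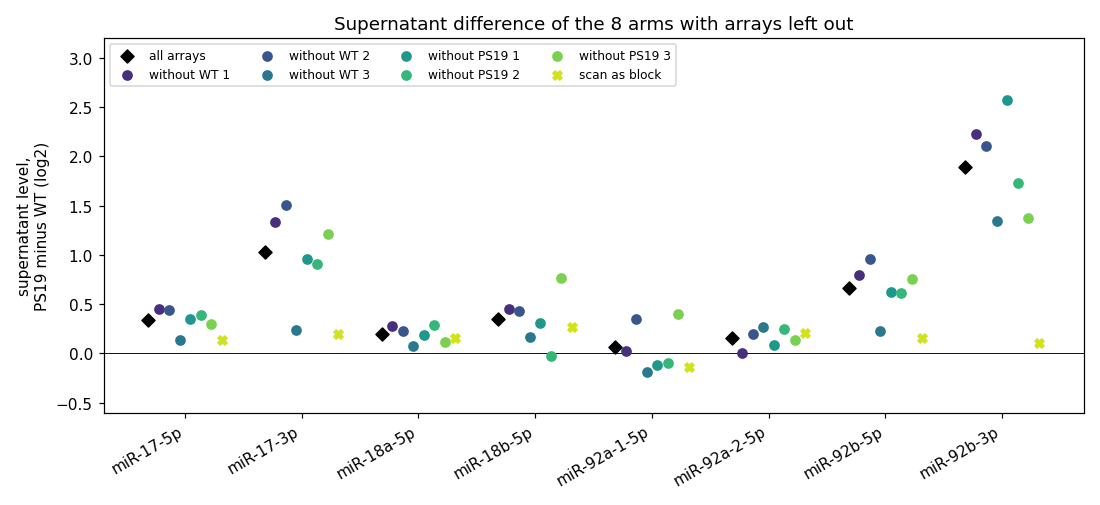
Difference in log2 supernatant level between PS19 and WT for each arm with all 6 arrays (diamonds), with 1 array left out (circles) and with the scan as a block (crosses), which leaves the comparison of PS19 1 with WT 2. Without WT 3 the difference of miR-17-3p falls from 1.03 to 0.24, and with the block that of miR-92b-3p falls from 1.89 to 0.10.

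Among 12 other arms of the clusters that begin with miR-17, miR-106a and miR-106b in the sheet, 11 could be tested in the supernatant. Of these, 8 were higher and 3 lower in PS19, the 8 also lying above the median RNA, with a median of 0.25, and limma called 0 at an adjusted p under 0.05. The smallest p-values belonged to miR-93-5p, higher by 0.40 (SE 0.34), miR-19a-3p, at -0.49 (SE 0.42), miR-106a-5p, higher by 0.35 (SE 0.31), and miR-20b-5p, higher by 0.40 (SE 0.37), with a limma adjusted p of 0.928 for each. The 5 arms that share the seed of miR-17-5p (miR-20a-5p, miR-20b-5p, miR-93-5p, miR-106a-5p and miR-106b-5p) all stood above the median RNA, with differences of 0.20 to 0.40 beside 0.34 for miR-17-5p. Whether probes for arms of one seed also bind each other was not tested. The only precursor of these clusters in the sheet, that of miR-363, differed by -0.23 (SE 1.11).

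Of the supernatant patterns over the 6 arrays, each taken around its own mean, those of miR-17-5p and miR-18a-5p were the closest of the 28 pairs of arms, with a root mean square difference of 0.130 log2 units. Among 1597 other named RNAs well above background on all 6 arrays, the nearest to miR-17-5p were miR-497b (0.0738) and miR-1970b-5p (0.0805). The nearest to miR-18a-5p were miR-1306-3p (0.0714) and miR-1970b-5p (0.0788). miR-17-3p was nearest to miR-8096 (0.0770) and to the tRNA fragment tRF3a-MetCAT-7 (0.128), miR-92a-2-5p to miR-505-5p (0.0702) and tRF5-20-CysGCA-15 (0.0799), and miR-92b-5p to tRF5-22-ValCAC-8 (0.0517) and miR-7688-5p (0.0774). For each of the 5 the candidates' median lay between 0.440 and 0.976. With 6 points that share arrays and scans, near patterns are a description only.

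In the CLIP level, the log2 pull-down signal on the same kind of scale, all 8 arms had a higher mean on the PS19 arrays, by 0.26 to 1.65 for the 7 that could be read on at least 1 WT array, and 6 of 8 did with the percentile over all RNAs, with spike-in probes or with quantile normalization. With normexp background correction 2 of 8 did. This was the contrast that tied names to probes. Of all 2356 RNAs tested 89.4% also lay above 0, with a median of 0.85, so differences are also given relative to that median. Relative to it miR-17-5p, miR-18a-5p and miR-18b-5p, the guide arms of miR-17 and miR-18, stood at 0.46, 0.66 and 0.80, and miR-17-3p at 0.64. For miR-92b-3p, also a guide arm, there is only a bound, which stood at -0.17. The -5p arms of miR-92b, miR-92a-1 and miR-92a-2 stood at 0.22, -0.44 and -0.59. On no array of WT was miR-92b-3p well above background, and 4 further arms reached it on 1 of 3.

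miR-18a-5p had CLIP levels of -6.17, -4.39 and -7.96 in WT and of -4.02, -5.10 and -4.86 in PS19. For miR-18b-5p they were -6.32, -4.37 and -8.01 in WT and -3.86, -5.02 and -4.87 in PS19. WT 2, the 1 WT array on which both arms were well above background, lay within the PS19 range of each arm, and WT 1 and WT 3 lay below it. The 2 patterns differed by a root mean square of 0.0958, the closest of the 28 pairs, whereas in the supernatant they differed by 0.561 and ranked 14. Given that the arms differ at 2 of 23 bases, whether their probes tell them apart was not tested. miR-17-5p followed with -6.17, -4.45 and -7.34 in WT and -4.03, -4.89 and -5.12 in PS19, and its groups overlapped too. The genotypes differed by 1.51 for miR-18a-5p, 1.65 for miR-18b-5p and 1.31 for miR-17-5p, and by 0.37, 0.51 and 0.42 between PS19 1 and WT 2. With 1 array left out the differences ranged from 0.62 to 2.41 for miR-18a-5p and from 0.76 to 2.58 for miR-18b-5p.

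The CLIP levels of miR-92b-3p were -6.75, -5.81 and -7.75 in WT and -5.03, -3.91 and -3.76 in PS19. As no WT array was well above background, its level there is only a bound, and no difference of measured means is read from it. The CLIP groups of the other 7 arms overlapped, while 4.42% of all RNAs with complete values lay without overlap and higher in PS19. miR-92b-3p entered this comparison through the PS19 arrays alone, so its bound is a description without a test. Set against the dimmest signal that counted as well above background on the WT arrays, a mean of -4.91, its PS19 mean was 1.61-fold higher. That is 0.68 on the log2 scale and -0.17 relative to the median RNA. PS19 2 and PS19 3, which shared a scan, lay above -4.91 and PS19 1 lay below it. With normexp background correction the CLIP difference of miR-92b-3p was 0.0025.

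**Figure D3:**
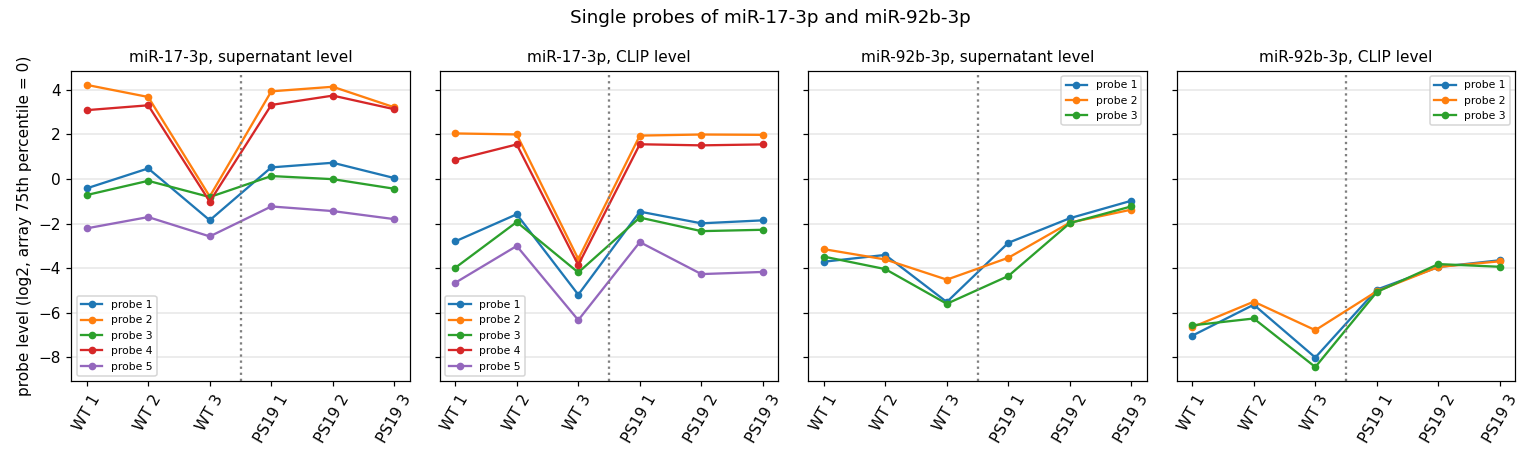
Log2 level of each probe of miR-17-3p (5 probes) and miR-92b-3p (3 probes) by array in the supernatant and CLIP channels; lines join values of one probe and the dotted line parts WT from PS19. Probes 2 and 4 of miR-17-3p are low on WT 3 in both channels, while all 3 probes of miR-92b-3p are highest on PS19 2 and PS19 3.

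For miR-17-3p the CLIP levels were -1.71, -0.59 and -4.64 in WT and -0.50, -1.02 and -0.95 in PS19. WT 3 was again far below the rest, and without it the difference of 1.49 was 0.33. miR-92b-5p gave -4.83, -3.56 and -5.87 in WT and -3.34, -3.80 and -3.91 in PS19, a difference of 1.07 with overlap. miR-92a-1-5p gave -5.43, -3.55 and -6.07 against -3.77, -5.40 and -4.64, and miR-92a-2-5p gave -5.39, -3.10 and -3.71 against -2.98, -4.30 and -4.14. Their differences of 0.41 and 0.26 turned to -0.12 without WT 3 and -0.0057 without PS19 1 for miR-92a-1-5p, and to -0.40 without WT 1 and -0.15 without PS19 1 for miR-92a-2-5p. Of the 12 other cluster arms, 12 lay above 0, with a median of 1.102, and 8 stood above the median RNA.

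The authors' own values scale the same CLIP signal by spike-in probes in place of the percentile. In the authors' deposited table miR-18b-5p, with a log2 fold change of 0.85 and a p-value of 0.00542, ranked 3 of 2380, and miR-18a-5p, with 0.71 and 0.00841, ranked 4. Of the WT arrays, both miR-18 arms were well above background in CLIP on WT 2 alone. miR-92b-3p had the largest fold change of the 8 there, 1.74, which rests on the same dim WT signals, and ranked 225 with a p-value of 0.143. The authors' deposited table gives 0.51 for miR-17-5p, 0.69 for miR-17-3p, 0.27 for miR-92b-5p, -0.39 for miR-92a-1-5p and -0.54 for miR-92a-2-5p. The authors' deposited table holds 56 RNAs (2.35%) that were higher in PS19 with a p-value under 0.05, and the adjusted p-value there of all 8 arms was 0.999.

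Array by array, the authors' values of miR-18a-5p were -3.43, -3.18 and -3.29 in WT and -2.84, -2.43 and -2.49 in PS19. Those of miR-18b-5p were -3.59, -3.16 and -3.34 in WT and -2.68, -2.36 and -2.50 in PS19. Both arms lay without overlap on that scale, as did 6.43% of the sheet's RNAs in that direction, and both overlapped on the percentile scale above. On WT 1 and WT 3 the signals of both miR-18 arms were not well above background. The authors' values were also those that tied names to probes. miR-92b-3p read -4.02, -4.59 and -3.08 against -3.85, -1.24 and -1.38 in the authors' values, so that PS19 1 lay within the WT range. miR-17-5p read -3.44, -3.24 and -2.67 against -2.85, -2.22 and -2.74.

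**Figure D4:**
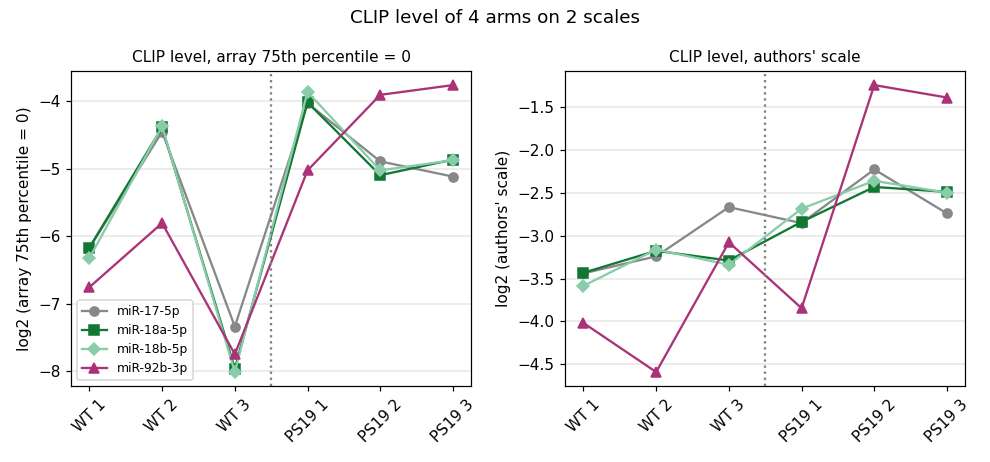
Log2 CLIP level of miR-17-5p, miR-18a-5p, miR-18b-5p and miR-92b-3p by array, on the 75th percentile scale (left) and on the authors' spike-in scale (right); lines join values of one arm and the dotted line parts WT from PS19. On the left WT 1 and WT 3 are low and WT 2 is not, while on the right the genotypes do not overlap for the miR-18 arms. The signals of those arms on WT 1 and WT 3 were not well above background.

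The ratio of CLIP to supernatant signal on one array, centred on the array's median over the RNAs tested, shows how an arm split between the fractions compared with the typical RNA. Averaged over both genotypes it is orthogonal to the contrast that chose the arms. At an adjusted p under 0.05 limma called 0 of the 8 arms and 0.227% of 3971 RNAs. miR-92a-1-5p, read by 1 probe, had the highest mean ratio of the 8, with ratios of 1.27, 0.79 and 1.02 in WT and 0.65, -0.09 and 1.55 in PS19. It lay above 0 on 5 of 6 arrays. The mean was 0.87 (SE 0.23, 95% interval 0.33 to 1.40), with an unadjusted p of 0.00619 and an adjusted p of 0.270 by limma. With normexp background correction the mean was 0.11. At the unadjusted threshold it was the only one of the 8, where 5.79% of all RNAs were higher in CLIP. Both its channels were well above background on WT 2 and PS19 1 alone, where the ratio was 0.79 and 0.65.

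The mean ratios of the other 7 arms lay between -0.15 and 0.20, with a limma adjusted p of 0.698 to 0.958. miR-17-5p, with ratios of 0.00, 0.01 and -0.55 in WT and 0.25, 0.30 and -0.21 in PS19, averaged -0.03 (SE 0.16, 95% interval -0.42 to 0.35). miR-92b-3p, at 0.07, -0.46 and 0.82 in WT and 0.16, 0.43 and -0.24 in PS19, averaged 0.13 (SE 0.21, 95% interval -0.35 to 0.61), although its WT ratios rest on CLIP signals not well above background. In both arms the ratios of the genotypes overlapped. miR-17-3p averaged 0.20 (SE 0.19), miR-18a-5p -0.04 (SE 0.23), miR-18b-5p 0.15 (SE 0.27), miR-92a-2-5p 0.03 (SE 0.19) and miR-92b-5p -0.15 (SE 0.18). Of 12 other cluster arms, limma called 0 in the mean ratio.

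Between genotypes the ratio shares the CLIP channel with the contrast that chose the arms and is given as values. PS19 minus WT was 0.29 for miR-17-5p, 0.65 for miR-18a-5p and 0.63 for miR-18b-5p. It was -0.21 for miR-17-3p, -0.32 for miR-92a-1-5p, -0.57 for miR-92a-2-5p and -0.26 for miR-92b-5p, and it is not given for miR-92b-3p, whose CLIP level in WT is only a bound. The guide arms of miR-17 and miR-18 had the higher mean in PS19, as they did with quantile normalization. They also stayed above 0 uncentred or centred on all RNAs. Those 2 settings shift every difference upward by the same amount, so these signs could not turn. The signs of miR-17-3p and miR-92b-5p changed with the centring. Those of miR-92a-1-5p and miR-92a-2-5p stayed below 0 uncentred, quantile-normalized or centred on all RNAs. With normexp background correction the guide arms of miR-17 and miR-18 lay between -0.012 and 0.011. Under it miR-17-3p stood at 0.67, miR-92b-5p at 0.12, miR-92a-2-5p at 0.041 and miR-92a-1-5p at -0.060, so that 3 of these 4 turned above 0. The groups of all 8 overlapped, and 4.19% of all RNAs with complete values lay without overlap and higher in PS19. The ratios of miR-18a-5p were 0.05, 0.22 and -1.36 in WT and 0.38, 0.34 and 0.13 in PS19, and without WT 3 the difference was 0.15. For miR-18b-5p they were 0.13, 0.40 and -1.02 against 0.59, -0.40 and 1.21. Both miR-18 arms had their lowest ratio on WT 3. In the CLIP channel of WT, miR-17-5p, miR-18a-5p, miR-18b-5p and miR-92a-1-5p were well above background on WT 2 alone. Their ratios on WT 1 and WT 3 thus rest on dim CLIP signals, and miR-18b-5p was read by 1 probe.

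**Figure D5:**
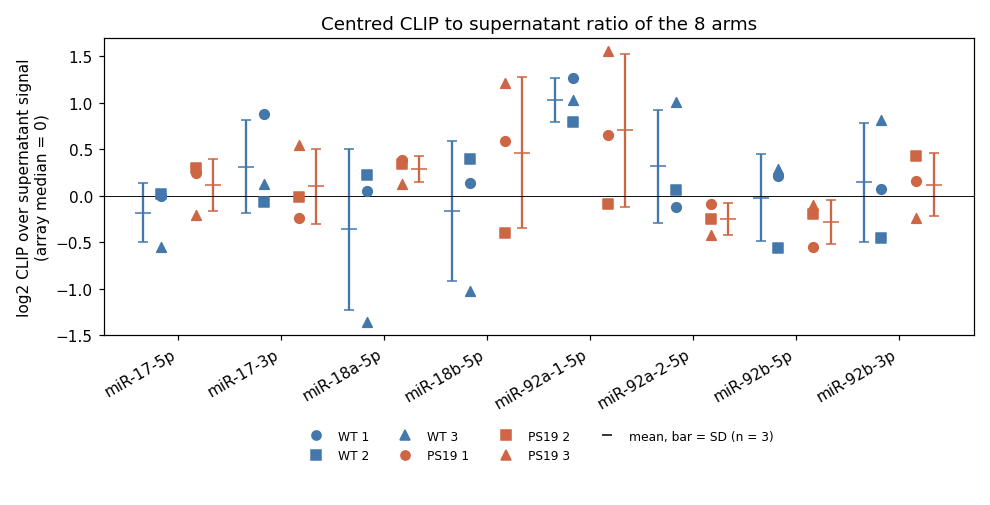
Log2 ratio of CLIP to supernatant signal of each arm, with each array's median over the RNAs tested set to 0; symbols are arrays and bars show the mean and SD of 3 arrays. miR-92a-1-5p lies above 0 on 5 of 6 arrays, and the groups of all 8 arms overlap.

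Of the 12 other cluster arms, 10 had a higher ratio in PS19, with a median of 0.24, where 48.2% of all RNAs lay above 0. Without overlap and higher in PS19 lay 2 of the 12, beside 4.19% of all RNAs with complete values. These 2, miR-20b-5p and miR-93-5p, are named after their values were seen. In the CLIP channel they were well above background on 2 and 1 of the 3 WT arrays. Both share the seed of miR-17-5p, and their ratios in PS19 were higher by 0.52 and 0.68. All 5 arms with that seed stood above the median RNA, which was -0.02, with differences of 0.14 to 0.68. The precursor of miR-363 differed by -1.12.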

How the data were processed

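Per the labels' protocols, 1 ug of RNA of each fraction was labelled in its own reaction. Intensity values were extracted from the scans with Agilent Feature Extraction 11.0.1.1, as the submitters' processing notes state; per the file headers these intensity values had the background subtracted and the dyes balanced within each array. The deposited value table holds log2 CLIP signals, which equal the log2 Cy5 processed signal minus 1 offset per array. The spike-in scale recomputed here, the mean of 7 spike-in probes, came close to that offset without equalling it. The CLIP difference of miR-17-5p was 0.47 on the recomputed scale and 0.51 in the authors' values. For 2380 RNAs the authors' deposited table adds a p-value, raw and adjusted, to the log2 fold change. The genome build behind the array design is not given in the sources used here.

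All 2380 names found exactly 1 partner among 557616 possible probe sets (1 probe, or a mean of up to 5 neighbouring microRNA probes) with the fold change within 1e-09 and the p-value within 1e-07. Log2 processed signals were averaged over an RNA's probes, and probes without a name (8555 of 14192) were tested singly. An RNA counted as well above background on an array when at least 1 of its probes did, so arms with more probes reached it more easily. Levels were set to the 75th percentile over the 1703 RNAs (supernatant) or 550 RNAs (CLIP) that were well above background on every array, and ratios were centred on the array's median over the RNAs tested. RNAs well above background on at least 3 arrays, with at least 2 values per genotype, entered a two-sided test, lmFit with eBayes of limma 3.58.1 under R 4.3.3, with 1 mean per genotype, and p-values were adjusted by Benjamini-Hochberg over all RNAs tested. Intervals are 95% intervals. The number of arrays limits the precision. A bound was taken against the dimmest signal called well above background on an array, or the arm's own signal where higher. The fits were tested on simulated data.

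Every arm of the named microRNAs is given. Cluster and seed partners are given by count, with up to 4 named by smallest p, and the 2 nearest supernatant patterns are named for each arm well above background on all 6 arrays. The members and lists were chosen with earlier results of these data known. The design text speaks of pairs, but the labels give no pairing beyond the replicate numbers, and the main fits were unpaired. Same-numbered arrays deviated from their group means with correlations of 0.14, -0.43 and 0.46 in the supernatant. So few values cannot settle whether the samples were paired. Alternatives covered background correction, normalization, filters, single probes, the variance model, scan and replicate blocks, leaving out 1 array, and the authors' values.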

Additional observations from a re-analysis of the deposited data

How the results depend on the processing

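No arm of the 8 passed limma's adjusted threshold in the supernatant level or the mean ratio under any alternative run, the lowest adjusted p being 0.102 (supernatant, normexp) and 0.211 (mean ratio, without PS19 2). With normexp 0.102 was also the lowest adjusted p by limma over all RNAs. Under that setting 1710 of 3727 RNAs were higher in PS19 in the supernatant at an unadjusted p under 0.05. In the supernatant 138 of the recomputed values of the arms kept their direction and 15 turned, and in the mean ratio 120 kept it and 25 turned. The cause of each change was not tested, except that the scan block compares PS19 1 with WT 2 only.

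Over all RNAs, the supernatant level and the ratio between genotypes gave 0 calls under every alternative run, although an unadjusted p under 0.05 was reached by 65 RNAs higher in PS19 and 39 lower in the supernatant, and by 83 and 81 in the ratio. The mean ratio gave 9 calls, against 0 with normexp, 23 with quantile normalization, 4 with RNAs well above background on all 6 arrays, 0 with a variance trend, 0 with the scan as a fixed block, 4 with the scan as a random block and 3 to 7 with 1 array left out: 4 without WT 1, 5 without WT 2, 3 without WT 3, PS19 2 or PS19 3. The CLIP level gave 0 calls (45 higher and 6 lower at an unadjusted p under 0.05), against 5 with normexp, 1 with a variance trend, 27 with array weights, 10 with the scan as a random block and 0 to 1 with 1 array left out (1 without WT 3). With the replicate block the mean ratio gave 3 calls and the supernatant level, CLIP level and ratio 0, and no call of an arm changed. In each of the 3 measures the correlations between same-numbered arrays differed in sign, which cannot settle whether the samples were paired.

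In the supernatant level, miR-17-5p turned to -0.23 in its lowest probe, and miR-18a-5p to -0.71 in its lowest probe and -0.0028 with the percentile over all RNAs. miR-92a-1-5p turned to -0.14 with the percentile over all RNAs, -0.088 with quantile normalization, -0.13 with spike-ins, -0.17 with array weights, -0.14 with the fixed and -0.017 with the random scan block. miR-92a-2-5p turned to -0.043 with the percentile over all RNAs and -0.037 with spike-ins. With 1 array left out miR-18b-5p ranged from -0.021 to 0.76 and miR-92a-1-5p from -0.18 to 0.40. With normexp the difference of miR-92b-3p was 0.60, and with the random scan block 0.87.

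In the mean ratio, normexp turned miR-17-5p to 0.014, miR-17-3p to -0.14, miR-18a-5p to 0.016 and miR-92a-2-5p to -0.064. The highest probe turned miR-17-5p to 0.32, miR-18a-5p to 0.17 and miR-92b-5p to 0.13, and the lowest probe turned miR-92a-2-5p to -0.16 and miR-92b-3p to -0.051. Centring on all RNAs, an alternative chosen after seeing the data, turned miR-18b-5p to -0.014, miR-92a-2-5p to -0.13 and miR-92b-3p to -0.033. Quantile normalization turned miR-18b-5p to -0.027 and miR-92a-2-5p to -0.080, array weights turned miR-18a-5p to 0.0098 and miR-92a-2-5p to -0.0026, and no centring turned miR-92a-2-5p to -0.071. With 1 array left out the ranges were -0.083 to 0.059 for miR-17-5p, -0.18 to 0.21 for miR-18a-5p, -0.036 to 0.37 for miR-18b-5p, -0.14 to 0.14 for miR-92a-2-5p and -0.036 to 0.28 for miR-92b-3p. The mean ratio of miR-92a-1-5p stayed between 0.65 and 1.06 with 1 array left out and was 0.11 with normexp.

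The scale shifts all RNAs together: the median supernatant difference was 0.10, but 0.87 unscaled and -0.10 with the percentile over all RNAs, and that of the CLIP level 0.85, but 1.17 unscaled, -0.03 with the percentile over all RNAs and 0.03 with spike-ins. With normexp 2 of the 8 arms were higher in the CLIP level, with a median of -0.10 for the arms and for all RNAs. Dim CLIP signals limit what the WT arrays can show, since 5 of the 8 arms were well above background on at most 1 of them.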

Other observations

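The fall of the 2 bright miR-17-3p probes on WT 3 had counterparts elsewhere on that array. Of 4135 probes well above background in the supernatant of all 6 arrays, 54 (1.31%) lay more than 3 log2 units below the lowest other array on WT 3, a threshold chosen after seeing the data, and 53 of them also did in the CLIP channel. On the other 5 arrays 0 probes did. Beside the 2 of miR-17-3p they included 5 probes each of miR-181a-5p, a microRNA of neurons and lymphocytes, miR-181c-5p, miR-470-5p, miR-6381 and miR-6992-5p.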
